A study of Mus musculus with 8 samples.

Results

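Mouse macrophage-like RAW264.7 cells given TBP were compared with untreated RAW264.7 cells by the positions of N6-methyladenosine (m6A) on their RNA. The material was a pair of deposited peak lists, 4432 peaks from the untreated library (control) and 6285 from the TBP library, together 10717 of the 20732 peaks in the 4 lists of the series. A TBP peak that shared at least 1 bp of the same strand with a control peak was called kept and any other TBP peak gained, and a control peak with no TBP peak over it was called lost. The gene holding a peak on the peak's strand was taken as its host, which placed 98.3% of the peaks in 3555 genes. A gene was called kept, gained or lost according to whether it held peaks in both lists, in the TBP list alone or in the control list alone, and these names are labels for calls in single libraries, not results of a test.

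RAW264.7 is a virus-transformed mouse line with macrophage features. Cells were left untreated (the labels name no vehicle) or exposed for 24 h to TBP, TCP or TIP, each at 100 µM, and these abbreviations are not spelled out in the labels. Each of the 4 conditions has 1 library of RNA immunoprecipitated with an anti-m6A antibody and 1 input library, and the input libraries were not analysed here. As a check on the label, 7 of 10 macrophage markers (Csf1r, Cd68, Mpeg1, Spi1, Lyz2, Fcgr1 and Cd14) held a peak in both lists, and 0 of 25 markers of lymphoid, granulocytic, stromal, epithelial, endothelial and erythroid cells held one in either.

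Each condition has a single library, so replicate error could not be measured and no test was run. Intervals in brackets are exact Clopper-Pearson 95% intervals and cover counting error only, and neighbouring peaks of a gene are not independent. The files carry no read counts, so the depth of each library is unknown, and a missing peak shows that none was called, not that the RNA was unmethylated. More transcript and more methylation per transcript cannot be told apart in a list of peaks, nor, in bulk RNA, can more cells of a kind and more RNA per cell. Near-identical gene copies, such as pseudogenes of ribosomal protein, histone and actin genes, could take reads from one another, so values for those genes are uncertain.

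m6A is the most common internal modification of mammalian messenger RNA. A methyltransferase complex built around METTL3 and METTL14 places it on the adenosine of short DRACH sequences, mainly in long internal exons and around stop codons and in 3′ UTRs, and YTH-domain proteins that read it steer splicing, export, translation and decay. In macrophages the mark is known to touch transcripts of Toll-like receptor signalling, cytokines and their regulators.

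The sequence under a peak could be read where the peak lay wholly inside a window of RefSeq's promoter table (GRCm38.p6), which spans 250 bases before to 50 bases after an annotated gene start. These start-site peaks are shown because none was shared. In such windows 0 of 20 control peaks and 0 of 16 TBP peaks overlapped a peak of the other list. Over the whole lists 42.7% of control and 60% of TBP peaks had no such overlap, and among peaks of 25 bp 63.4% and 81.4%. Most start-site peaks were of 25 bp, 16 of 20 in control and 12 of 16 in TBP. Each was searched on its own strand for the 18 DRACH words, which begin with any letter but C, go on with a purine and AC, and end with any letter but G. A match was found in 7 of 12 gained peaks of 25 bp and in 4 of 16 lost ones. In the table as a whole, the first 25 bases after the start held a match in 31.9% of 32851 windows, 31.3% when read on the other strand, and GGACT, 1 of the 18 words, in 2.64%. The peaks did not all cover that stretch, so these shares are not a matched background. Some peaks lay wholly before the annotated start, among them the Hnrnpdl peak below, at bases -99 to -75. Matches are letters in a window and do not show a methylated site. Below are 4 gained peaks, in genes of ubiquitin conjugation, interferon response, DNA repair and RNA binding, then 4 lost ones, in genes of the respiratory chain, a co-chaperone, the spliceosome and a lysosomal protease. They are written 5′ to 3′ on the gene's strand with DRACH matches in capitals.
Ube2n, gained, chr10:95515170-95515194, plus strand: ggAGACAagagcagaggccGAACTc
Ifitm2, gained, chr7:140955954-140955978, minus strand: tctacaGAACCaggatagcagcagc
Babam1, gained, chr8:71396861-71396885, plus strand: agcgccgcacAAACTtccggccagg
Hnrnpdl, gained, chr5:100039297-100039321, minus strand: gagggcgcagcaagGGACTgagccg
Ndufa8, lost, chr2:36049296-36049320, minus strand: ttggccagccaaaggGGACTtgaag
Dnajc17, lost, chr2:119208763-119208787, minus strand: aattcaagtttGGACTaGAACCatg
Sf3b6, lost, chr12:4817594-4817618, plus strand: tagtgTGACTtggagcatcttttct
Ctss, lost, chr3:95526811-95526835, plus strand: acaagctccgatttctttttagagt

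All 8 were low in their lists, with ranks from 2938 to 3772 of 4432 among the lost and from 4234 to 5377 of 6285 among the gained, where rank 1 is the best score and tied peaks share a rank. The score is the authors' own and has no stated scale, so it was used to rank peaks within a list and never compared between lists. Of the 8, only the Dnajc17 peak overlapped a TCP peak, and none overlapped a TIP peak. The Ctss peak, on the transcript of cathepsin S, held no match.

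A single mature microRNA lay under a peak, and it was gained. The TBP peak at chr16:50727182-50727231, plus strand, rank 4741, covered the 22 bases of mmu-miR-6363, chr16:50727204-50727225, and no other list had a peak there. RefSeq gives its mature sequence as follows, with the seed (bases 2 to 8) in capitals.
mmu-miR-6363: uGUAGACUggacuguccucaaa
It holds the words AGACU from base 4 and GGACU from base 9, and 3.41% of the 1674 mature microRNAs in the table hold 2 or more DRACH words. The library was made from fragments of 40 to 60 nt of total RNA, so the peak can stand for the hairpin or a longer transcript around it.

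TBP-treated cells had 1853 more peaks than untreated cells, and gained peaks were weaker in score and narrower than kept ones. Of the 6285 TBP peaks, 3771 were gained (60%, 58.8 to 61.2). Of the 4432 control peaks, 1892 were lost (42.7%, 41.2 to 44.2). The best-scored peaks were largely common to both lists. Each list was divided by score into 10 bins, with tied peaks in the same bin. In the best-scored TBP bin 89.1% (86.4 to 91.5) were shared with control, and in the worst-scored 9.13% (7.34 to 11.2) were. The control list went from 86.7% (83.3 to 89.7) shared in its best-scored bin to 27.1% (23.7 to 30.6) in its worst-scored.

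**Figure D1:**
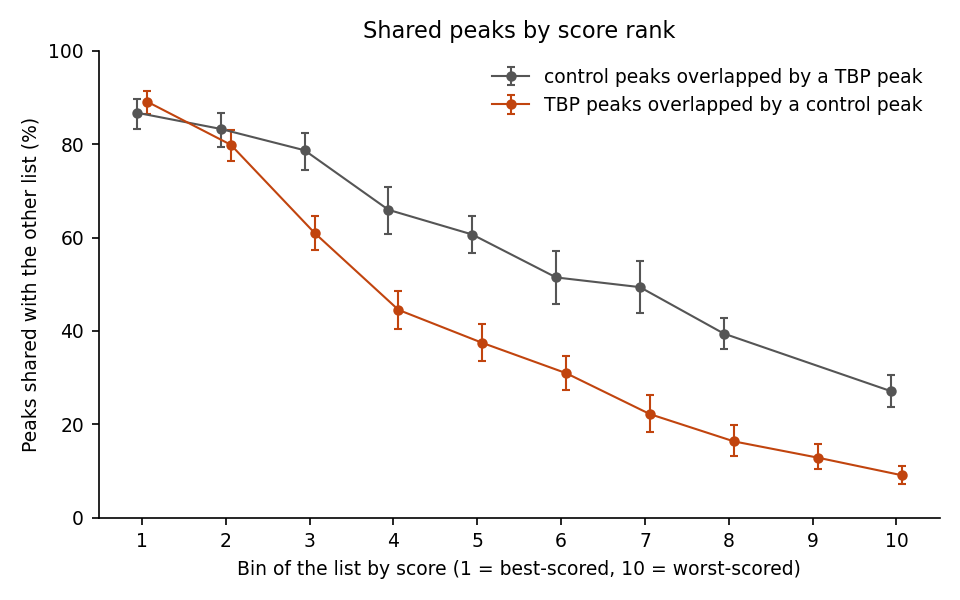
Share of peaks (%) with a same-strand overlap in the other list, by bin of each list from best-scored (1) to worst-scored (10); bars are exact 95% intervals, and bin 9 of control is empty because tied scores share a bin. Both lines fall from above 86% to 27.1% in control and 9.13% in TBP.

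Width followed the same order. Peaks of 25 bp, the step of the authors' grid, made up 48.3% (46.7 to 49.9) of gained peaks and 16.6% (15.1 to 18.1) of kept TBP peaks. Of TBP peaks of 100 to 500 bp, 80.8% (78.4 to 83.1) were shared with control, against 18.6% (17.0 to 20.3) of those of 25 bp. Peaks spanning over 500 bp, which can cross introns, were again mostly unshared, with 24 of 90 (26.7%, 17.9 to 37.0) overlapped by a control peak.

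Gained and lost peaks at the top of the lists were few. Of the 250 best-scored TBP peaks, 25 (10%) had no overlap anywhere in the full control list. Of the 250 best-scored control peaks, 38 (15.2%) had none anywhere in the full TBP list. At 1000 peaks the numbers were 131 (13.1%) and 151 (15.1%). At these 2 cuts losses thus outnumbered gains, while the whole lists held 3771 gains and 1892 losses. At 2000 peaks the order had turned, with 497 TBP peaks (24.85%) and 473 control peaks (23.65%) without overlap. An equal number of peaks is also a larger part of the shorter control list. In bin 2 by score 79.9% of TBP and 83.3% of control peaks were shared.

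The excess of gains was not seen with lists of equal length. When the TBP list was cut to its 4432 best-scored peaks, 48.1% of TBP peaks were gained and 47.3% of control peaks were lost. Cutting to equal length removes any true overall difference along with one of depth, and these cannot be told apart here.

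Gained peaks lay in the same parts of transcripts as kept ones, with a modest shift from the 3′ UTR to internal exons. In the 3′ UTR lay 49.2% (47.6 to 50.8) of gained and 52.9% (51.0 to 54.9) of kept TBP peaks. In internal exons, neither first nor last, lay 28.5% (27.0 to 29.9) of gained and 24.4% (22.8 to 26.2) of kept TBP peaks. Lost control peaks had the same shift, with 48.8% (46.5 to 51.1) in the 3′ UTR and 28.4% (26.4 to 30.5) in internal exons, against 52.5% and 24.6% of kept control peaks. The shift was thus found in unshared peaks of both libraries.

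The place of an unshared peak differed with its gene. Gained peaks in genes that already held a control peak lay in internal exons in 33.4% (31.5 to 35.3) and in the 3′ UTR in 44.1% (42.1 to 46.1). Gained peaks in gained genes lay in internal exons in 21.3% (19.2 to 23.6) and in the 3′ UTR in 57.6% (54.9 to 60.3). Lost peaks had the same order, with internal exons holding 32.2% (29.8 to 34.8) in kept genes and 19.4% (15.9 to 23.2) in lost genes, and the 3′ UTR 46.5% and 55.9%. These intervals do not overlap between the kinds of gene in either direction.

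**Figure D2:**
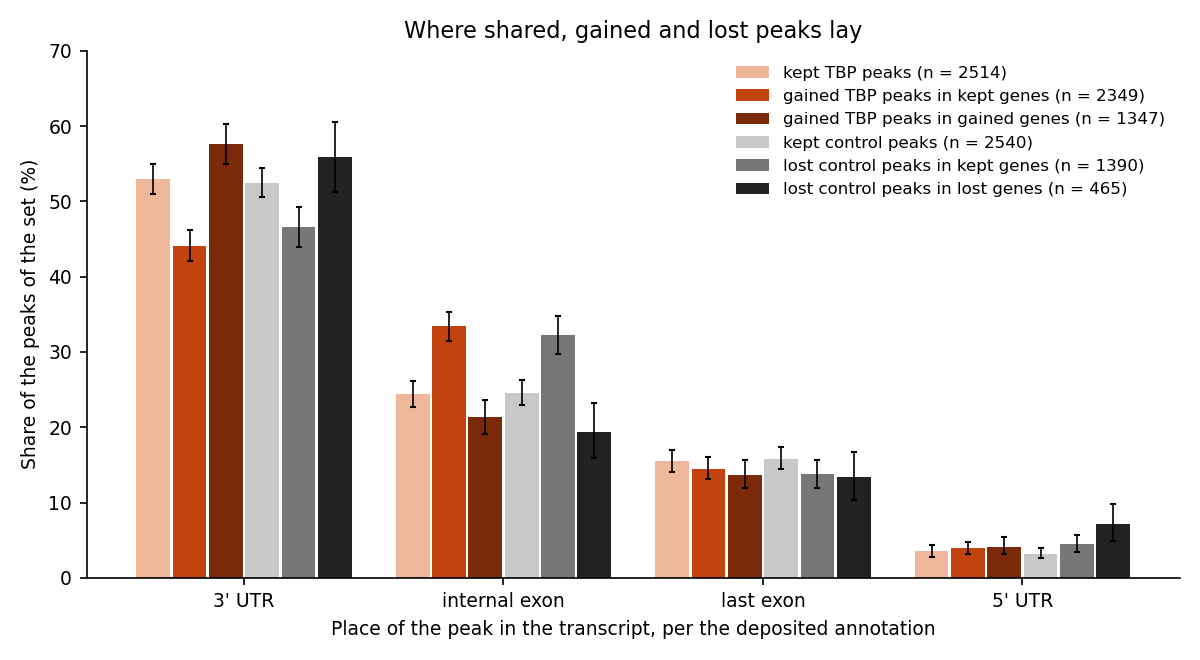
Share of each set of peaks (%) by place in the transcript, with exact 95% intervals; orange sets are TBP peaks and grey sets control peaks. In both lists, unshared peaks in kept genes lay more often in internal exons (33.4% and 32.2%) than unshared peaks in genes with peaks in 1 list (21.3% and 19.4%).

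In 5′ UTRs losses were relatively more frequent. These held 155 gained and 88 kept TBP peaks. Of the control's 183 peaks there 82 (44.8%, 37.5 to 52.3) were kept, against 59.1% (57.0 to 61.1) of its 3′ UTR peaks. In lost genes 7.10% (4.94 to 9.82) of peaks lay in the 5′ UTR. The 5′ UTR peaks also ranked lower, at a median percentile rank of 62.6 in control against 49.7 for 3′ UTR peaks, where a higher percentile is a weaker peak. Among the better-scored part of the control list 70.1% (58.6 to 80.0) of 5′ UTR and 75.6% (73.0 to 77.9) of 3′ UTR peaks were kept, and those intervals overlap.

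At the level of genes, 2050 of 3555 were kept, 1077 gained (30.3%) and 428 lost (12%). Of the gained genes 860 (79.9%) held a single TBP peak, and of the lost genes 396 (92.5%) a single control peak. A gene was lost only if each of its control peaks was lost, so by definition loss is harder for genes with more peaks. Lost were 26.1% (23.9 to 28.4) of the genes with 1 control peak, 5.05% (3.35 to 7.26) of those with 2 and 1.18% (0.383 to 2.72) of those with 3 or more. With the TBP list cut to equal length, 632 genes (20.3%) were gained and 641 (20.6%) were lost, and depending on how 507 peaks tied at the edge were treated, 579 to 705 were gained and 595 to 676 lost.

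The 10 gained genes with the most TBP peaks held 3 to 6 each. Dicer1, the nuclease that cuts microRNA precursors, had 6 TBP peaks and none in control, all in exons 21, 23 and 24 of 27, with the best, rank 1944, at chromosome 12, 104702615 to 104702664, minus strand. It also had 4 TCP peaks and 1 TIP peak, in lists whose comparisons would share the same control library. Ccar1, a coactivator of nuclear receptors and regulator of the cell cycle, had 0 in control and 5 in TBP, spread over exons 16 to 24 of 25. Wbp11, a splicing protein, had 0 and 4, and Cnbp, whose zinc fingers bind single-stranded nucleic acids, 0 and 3.

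Baz1a, a subunit of ISWI remodelling complexes, had 0 peaks in control and 4 in TBP, 1 of them a wide peak at chromosome 12, 54954835 to 54975171. Dido1, a chromatin-reading protein, had 0 and 4, its best at rank 1054 in exon 4 of 16. Sec62, part of the translocon of the endoplasmic reticulum, had 0 and 4, packed between 30818596 and 30818995 on chromosome 3 in its last exon and 3′ UTR, and its 4 peaks were all retained at equal list length. Nav1, a microtubule-associated protein, had 0 and 4, and Xpo1, the export receptor for proteins with nuclear export signals, 0 and 3. With equal lists these 10 genes held 2 to 4 TBP peaks each.

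Of the 10 lost genes with the most control peaks 5 held 3 and 5 held 2. Atpif1, the inhibitor of the mitochondrial ATP synthase, had 3 control peaks and none in the other 3 lists, the best at rank 1218 in its last exon, chromosome 4, 132530705 to 132530729. Sephs1, of the selenophosphate synthetase family, had 3 control and 0 TBP peaks, beside 4 TCP peaks and 1 TIP peak. Slc44a1, a choline transporter, had 3 and 0, with all of its peaks in the 3′ UTR between 53567402 and 53567676 on chromosome 4. Malat1, a nuclear long non-coding RNA, and Cap1, which recycles actin monomers, each had 3 and 0.

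Tcp1, a subunit of the chaperonin that folds actin and tubulin, had 2 control peaks, 1 of them in the 3′ UTR at rank 132, and 0 TBP, 2 TCP and 0 TIP peaks. Pabpc1, the cytoplasmic poly(A)-binding protein, and Actb, cytoplasmic beta-actin, had 2 in control and 0 in each of the other 3 lists. Smap2, an Arf GTPase-activating protein, and Arhgef7, a Rac and Cdc42 exchange factor, had 2 in control, 0 in TBP and 2 in TCP. A shorter TBP list cannot restore a lost gene, so all 10 were also lost at equal list length.

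Of the 3771 gained peaks 2349 (62.3%, 60.7 to 63.8) lay in kept genes and 1347 (35.7%) in gained genes. Both lists were also cut to peaks not below their median score, and gained peaks and kept genes were called again within the cut lists. By those calls 48.4% of gained peaks lay in kept genes. Such gained peaks include some that overlap a weaker control peak, so this share and the 62.3% do not describe the same calls. Of the 1892 lost peaks 1390 (73.5%, 71.4 to 75.5) lay in kept genes. Kept genes went from 3896 control to 4829 TBP peaks, a net 933. More TBP than control peaks were found in 737 of 2050 kept genes (36%, 33.9 to 38.1), fewer in 307 (15%, 13.5 to 16.6) and the same number in 1006. Of the 1006 genes with the same number 225 (22.4%, 19.8 to 25.1) shared no peak between the lists, and 617 (61.3%, 58.2 to 64.3) shared every one.

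At least 3 peaks were added in 127 kept genes and at least 3 removed in 6. With equal lists 21.8% of 1837 kept genes had more and 23.2% had fewer, a net of 15 peaks. Genes with additions were the longest, with a median genomic span of 39901 bp against 25532 bp for genes of unchanged number. Genes with fewer TBP peaks lay between, at 29357 bp. Genes of changed number also held more control peaks, a mean of 2.07 with additions and 2.90 with removals against 1.47 in unchanged genes. In the 889 genes of longest span TBP peaks were 1.56 times the control peaks, and in the 889 of shortest span 1.28 times. Cut to equal length the ratios were 1.09 and 0.938, so the order by span was there on both scales.

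**Figure D3:**
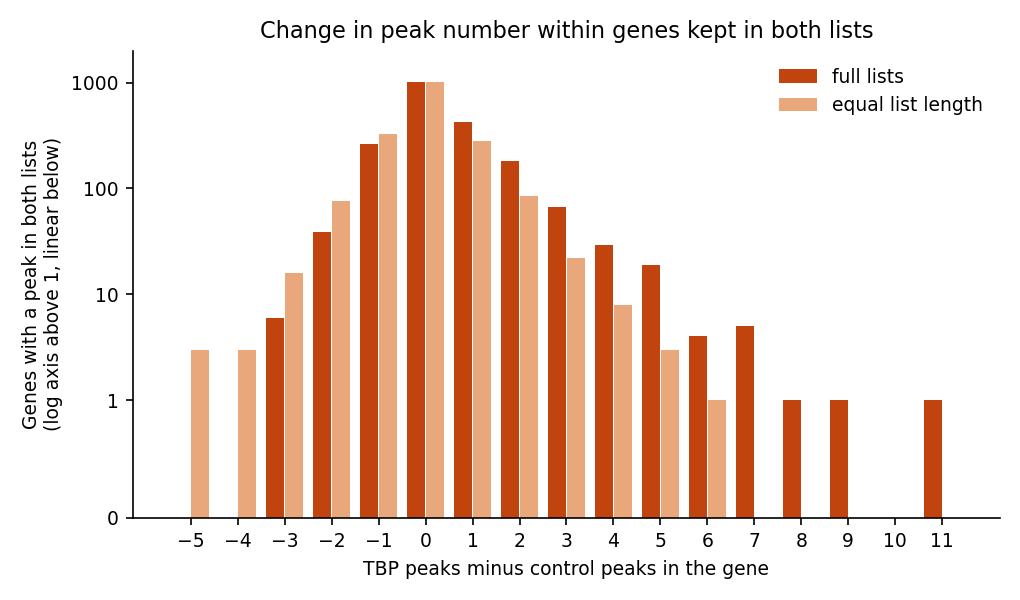
Number of kept genes by TBP minus control peaks, for the full lists and at equal list length; the vertical axis is logarithmic above 1. The full lists reach 11 added peaks and 3 removed, and at equal list length the range is 6 added to 5 removed.

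Many calls of gain and loss within kept genes turned on small offsets. Of the gained peaks in kept genes 745 (31.7%, 29.8 to 33.6) lay within 100 bp of a control peak of the same gene, and 329 of these directly abutted one. Of the lost peaks in kept genes 598 (43.0%, 40.4 to 45.7) lay within 100 bp of a TBP peak and 315 of these abutted one. At the other end, 524 gained peaks (22.3%) were over 2000 bp from any control peak of their gene. The median distance was 251 bp for gained and 126 bp for lost peaks.

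The best-scored unshared peaks show both kinds. Txnip, the inhibitor of thioredoxin, gained a 3′ UTR peak of rank 62 at chromosome 3, 96560761 to 96560810, which ended 1 bp before a control peak of rank 111 at 96560811. Slc1a5, a glutamine transporter, likewise had a gained peak of rank 62 abutting a lost one. In Itga4, the integrin alpha 4 chain, a lost peak of rank 16 at chromosome 2, 79327746 to 79327845, began 1 bp after a TBP peak of rank 26. Counting peaks within 100 bp of each other as shared took the gained share of TBP peaks from 60% to 48.0%.

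Other strong unshared peaks lay from 126 to 2806 bp away. Pdia3, which isomerises disulfide bonds of glycoproteins, had a gained 3′ UTR peak of rank 11 at chromosome 2, 121437649 to 121437823, which lay 2806 bp from its single control peak in exon 9 of 13, itself lost at rank 172. Hsp90ab1, the constitutive cytosolic HSP90, had a lost peak of rank 98 in exon 6 of 11, 1304 bp from the nearest TBP peak. Mtdh, an RNA-binding protein of the endoplasmic reticulum and nucleus, went from 1 wide control peak of rank 3772 to 5 TBP peaks, the best at rank 19 and 226 bp away. Hnrnpa0, an RNA-binding protein, lost a 3′ UTR peak of rank 68 that lay 126 bp from the nearest TBP peak.

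Nfat5, the transcription factor of the osmotic stress response, had 8 control, 19 TBP, 12 TCP and 11 TIP peaks. Of its 19 TBP peaks 17 lay in a stretch of 3′ UTR between 107367076 and 107376989 on chromosome 8. With equal lists 9 of the 19 were left, 1 more than in control. Srcap, which loads the histone variant H2A.Z, had 4 control, 12 TBP, 11 TCP and 2 TIP peaks, and 10 of the 12 were left at equal list length. Most lay in its last exon, 34 of 34.

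Tcf20, a transcriptional coregulator, had 4 control and 13 TBP peaks, every one in exon 2 of 5, and 6 TBP peaks were left at equal length. Rif1, which guards replication timing and DNA ends, had 3 and 10 (7 at equal length), most of them in exon 30 of 36. Spen, a corepressor with RNA-binding domains, had 5 and 12 (8). Son, a speckle protein for splicing, had 15 and 22 (17), and Kmt2d, an enhancer H3K4 methyltransferase, 10 and 16 (11). In each of these 5 genes TBP had more peaks than control at equal length too.

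Vps13c, a lipid transfer protein, had 1 control peak and 8 TBP peaks (5 at equal length), spread from exon 4 of 85 to the 3′ UTR, the best at rank 254 in exon 54. Macf1, which links actin and microtubules, had 12 and 19 (13). Tlr7, the endosomal receptor for single-stranded RNA, had 9 and 15 (11), and 12 TCP and 5 TIP peaks.

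**Figure D4:**
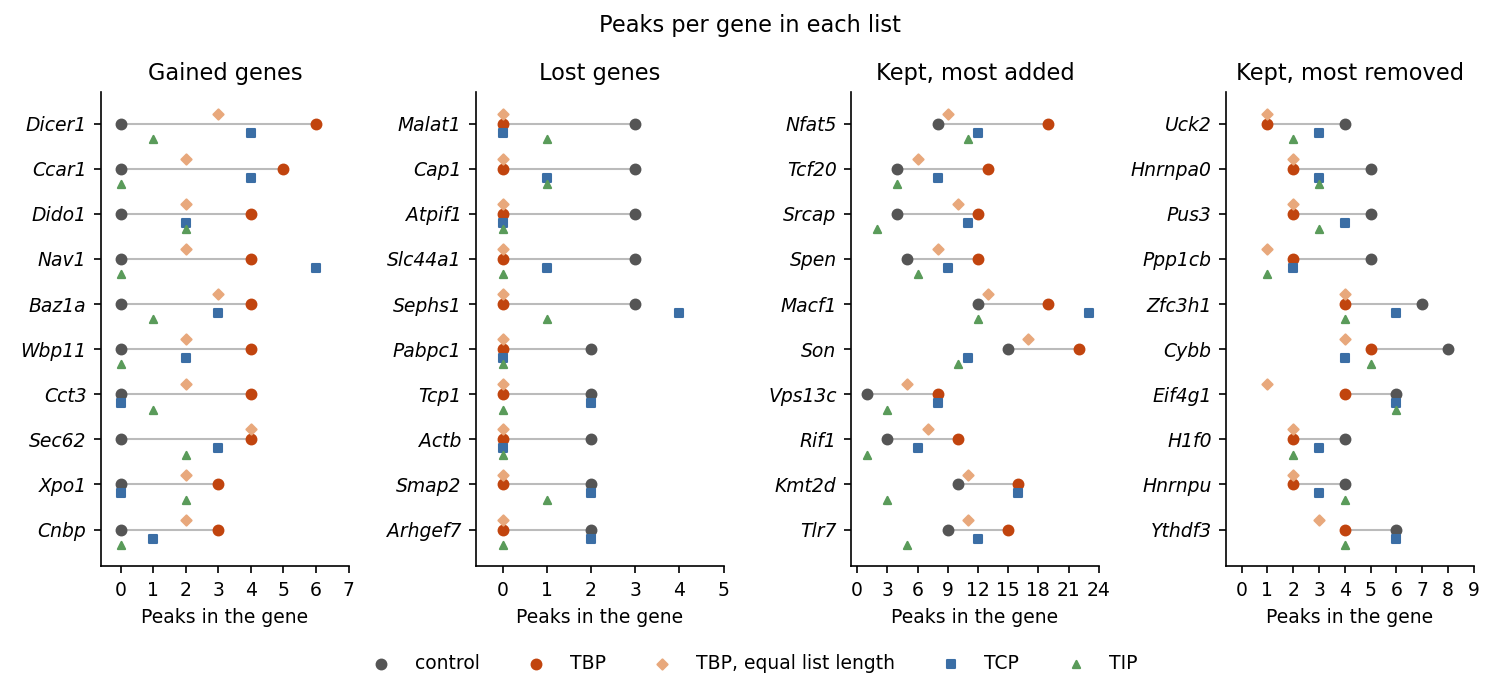
Peaks per gene in control, TBP, TBP at equal list length, TCP and TIP for the 10 genes of each kind with the largest differences between control and TBP. Lost genes reach 3 control peaks, gained genes 6 TBP peaks, and kept genes up to 11 added and 3 removed.

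The 10 kept genes with the most removals had 2 or 3 fewer TBP peaks each. With equal lists Eif4g1 had 5 fewer, and Ppp1cb and Cybb 4 fewer each. Cybb, the catalytic subunit of the phagocyte NADPH oxidase, had 8 control, 5 TBP, 4 TCP and 5 TIP peaks. Its 4 control peaks in exons 9, 5 and 2 of 13 were lost, while a 5′ UTR peak of rank 149 was gained at chromosome X, 9469249 to 9469298. Hnrnpa0 had 5 and 2, Hnrnpu, a nuclear matrix RNA-binding protein, 4 and 2, and H1f0, a replacement linker histone, 4 and 2. Eif4g1, the scaffold of translation initiation, had 6 and 4. Its 3′ UTR peak, rank 4 in control and rank 7 in TBP, was kept, while each of its 5 other control peaks was lost.

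Uck2, a uridine-cytidine kinase, had 4 control peaks and 1 TBP peak, and Ppp1cb, a catalytic subunit of protein phosphatase 1, had 5 and 2. For Zfc3h1, of the nuclear exosome's poly(A) tail connection, 7 against 4 was partly a matter of merging, because 3 control peaks in exon 2 of 35 fell under 1 TBP peak of rank 87, and 6 of its 7 control peaks were kept. Pus3, a pseudouridine synthase, had 5 and 2, but it overlaps Hyls1, the gene the authors' nearest-gene column names, so its reads cannot be assigned with certainty.

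Counts in gene lists are set against those over all genes with a peak, of which 30.3% were gained and 12% lost, while 36% of the kept had more and 15% fewer TBP peaks. With equal lists 20.3% were gained, 20.6% lost, and 21.8% and 23.2% of the kept had more and fewer.

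The m6A machinery itself carried peaks. Of 12 listed members and relatives of the methyltransferase complex 7 held a peak, and their sum was 13 in control and 21 in TBP (16 at equal length). Rbm15, an adaptor that brings the complex to RNA, had 5 and 8, Virma, its scaffold, 2 and 4, Wtap, its regulatory subunit, 1 and 2, and Zc3h13 2 and 3. Rbm15b had 2 and 1. Cbll1 had 1 and 2. Thus 5 of 6 kept members had more TBP peaks and 1 had fewer, and at equal length 2, Rbm15 with 7 and Virma with 4, had more and 1 had fewer. Pcif1, the cap-adjacent m6Am methyltransferase, was gained with 1 weak peak. The catalytic pair Mettl3 and Mettl14 had no peak in either list.

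Among readers and erasers the directions were mixed. Ythdf2, the reader that recruits the deadenylation machinery, had 4 peaks in control and 7 in TBP, and Ythdf3 had 6 and 4, while Ythdf1 had 2 in each. In Ythdf3 2 peaks were gained and 2 lost, so its lower count came from neighbouring control peaks that fell under the same TBP peak. Ythdc1, the nuclear reader, had 2 and 3. Fto, an m6A and m6Am demethylase, had 1 in control and 0 in TBP, and Hnrnpc had 0 and 1. The 9 members with a peak summed to 24 in control and 29 in TBP, and to 24 at equal length.

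Of 18 Toll-like receptor and NF-κB genes with a peak 11 were kept, 5 gained (27.8%, against 30.3% over all genes) and 2 lost (11.1%, against 12%). Of the 11 kept 7 had more TBP peaks (63.6%, against 36%) and 0 had fewer. With equal lists 9 were kept, of which 5 had more and 1 had fewer. Tlr2, the receptor for bacterial lipoproteins, had 8 and 11 but 8 at equal length. Tlr4, the receptor for lipopolysaccharide, had 2 and 5, Tlr13, which binds bacterial ribosomal RNA, 1 and 4, and Tab2, an adaptor of the kinase TAK1, 3 and 6. The gained members were Rel, Tab1, Map3k7, Irak1 and Tbk1, each with 1 TBP peak, and the lost ones Nfkbia, the NF-κB inhibitor, and Tlr1, each with 1 control peak. The sum was 33 in control, 56 in TBP and 42 at equal length, where 4 members were gained and 4 lost.

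Of 15 interferon and JAK-STAT genes with a peak 11 were kept, 4 gained (26.7%, against 30.3% over all genes) and 0 lost (against 12%). Of the kept 6 had more (54.5%, against 36%) and 2 fewer TBP peaks, and with equal lists 5 had more and 2 fewer. Socs4 had 2 and 5 peaks, Ifnar2, a chain of the type I interferon receptor, 3 and 5, and Socs5 and Il10rb, both gained, 0 and 2. Their sum was 19 in control, 32 in TBP and 27 at equal length. Of genes for cytokines and chemokines 4 of 30 held a peak. Tnf and Vegfa had 1 peak in each list, and the chemokines Ccl3 and Ccl9 had 1 in control and 0 in TBP.

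Of 14 macrophage identity genes with a peak 10 were kept, 4 gained (28.6%, against 30.3% over all genes) and 0 lost. Of the kept 2 had more (20%, against 36%) and 2 fewer TBP peaks, and with equal lists 1 had more and 4 fewer. Csf1r, the receptor for the growth factor M-CSF, had 4 peaks in each list and Cd14, the lipopolysaccharide co-receptor, 7 in each. Cx3cr1, the fractalkine receptor, had 2 and 6, all 6 retained at equal length. Lyz2 had 2 and 1. Gained members such as Irf8, Fcgr2b and Ptprc had 1 TBP peak each.

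Among gene lists with at least 10 genes holding a peak, remodellers, acetylation and DNA methylation genes had 1.8 times as many TBP as control peaks on the full lists. Only Rab GTPases and endosomal sorting, at 1.86, were higher, and cholesterol and lipid metabolism was close at 1.75. Histone methyltransferases and demethylases, at 1.49, were nearer to the 1.42 over all genes. The order depended on list length. At equal length the Rab list had 23 TBP peaks against 21 in control and the cholesterol list 18 against 16. Remodellers then had 111 against 80, and interferon and JAK-STAT genes 27 against 19. Of 38 remodellers, acetylation and DNA methylation genes with a peak 32 were kept, 6 gained (15.8%, against 30.3% over all genes) and 0 lost (against 12%). Of the 32 kept 22 (68.8%) had more TBP peaks and 2 had fewer, against 36% and 15% over all kept genes. With equal lists 16 of 32 kept had more and 6 fewer. Atrx, a remodeller of repeat chromatin, had 2 and 7, Arid1a, a BAF subunit, 6 and 10, Asxl1 5 and 9, and Chd9 1 and 5. The gained members included Tet2, a 5-methylcytosine oxidase, with 0 and 3. The sum went from 80 to 144, 111 at equal length, and over all genes with a host from 4361 to 6176, 4365 at equal length. Many of these genes are long, and additions followed span over all genes, so the part of length in this list was not tested.

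Histone methyltransferases and demethylases went from 72 to 107 peaks (82 at equal length), with 22 kept, 7 gained (22.6%, against 30.3% over all genes) and 2 lost (6.45%, against 12%) of 31. Ash1l, an H3K36 methyltransferase, had 9 and 14, Setd2, the main H3K36 trimethylase, 6 and 10, and Kmt2a 6 and 9 but 6 at equal length. Setd1a had 0 and 2. The lost members were Jarid2 and Kdm3b, with 1 control peak each.

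Cytosolic ribosomal protein genes stood at the low end of the same lists, at a ratio of 0.913. Of 26 with a peak 9 were kept, 9 gained (34.6%, against 30.3%) and 8 lost (30.8%, against 12% over all genes), and 0 of the 9 kept had more TBP peaks while 2 had fewer. Rps3 had 3 and 1. Lost members, among them Rpl8, Rps29, Rps9 and Rps14, had 1 control peak each, and gained members such as Rpl5, Rps25 and Rps28 had 1 TBP peak each. The sum was 23 in control, 21 in TBP and 9 at equal length, where 3 were gained and 11 lost. These are short genes with few peaks. Loss over all genes was most frequent in those with 1 control peak, which follows in part from how a lost gene was defined. The part of gene length and peak number in this list was not tested.

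**Figure D5:**
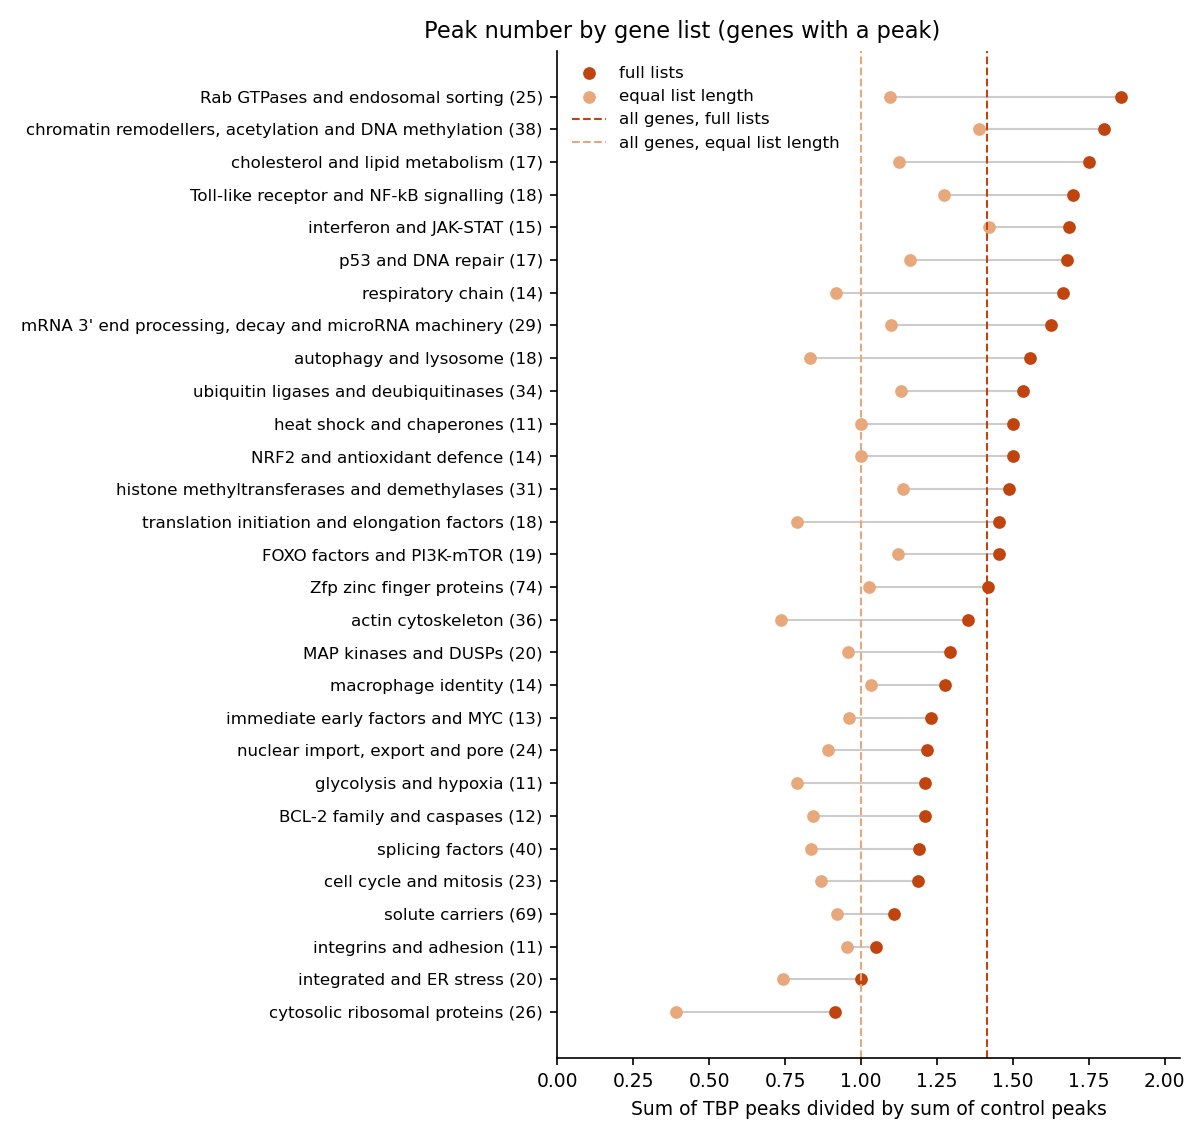
Sum of TBP peaks divided by sum of control peaks for each gene list with at least 10 genes holding a peak (number in brackets), for the full lists and at equal list length; dashed lines give all genes. Chromatin remodellers lie to the right of both lines (144 against 80 peaks, 111 at equal length) and ribosomal proteins to the left of both (21 against 23, 9 at equal length).

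Of 36 actin cytoskeleton genes with a peak 15 were kept, 13 gained (36.1%, against 30.3% over all genes) and 8 lost (22.2%, against 12%). Beside Cap1 and Actb, the lost ones were Capg, Diaph1, Arpc5, Arpc3, Vim and Rhoa, with 1 control peak each. Gained ones included Arpc1b and Arpc4, of the Arp2/3 complex that branches filaments, Actn4 and Coro1a, each with 0 and 2. Lcp1, the leukocyte bundling protein, had 2 and 5. With equal lists 5 were gained and 11 lost, so the excess of gains in this list was not seen there.

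Subunits of the CCT chaperonin, which folds actin and tubulin, differed from one another. Cct3 had 0 peaks in control and 4 in TBP, Tcp1 had 2 and 0, Cct2 had 1 and 0, and Cct5 had 2 in each. Among all heat shock and chaperone genes 6 were kept, 2 gained (18.2%, against 30.3% over all genes) and 3 lost (27.3%, against 12%) of 11.

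Stress genes of the endoplasmic reticulum and the integrated stress response had 43 peaks in each list, and 32 TBP peaks at equal length, while the sum over all genes was 1.42 times as high in TBP. Of 20 with a peak 16 were kept, 2 gained (10%, against 30.3% over all genes) and 2 lost (10%, against 12%), and with equal lists 1 was gained and 3 lost. Eif2ak3, the kinase PERK, had 0 and 3, and Atf4, the factor it induces, 0 and 1. Asns and Chac1, both ATF4 targets, had 2 and 0 and 1 and 0. Among chaperones of the organelle Hspa5 had 4 and 3, Canx 5 and 3, Calr 3 and 4 and Hsp90b1 3 and 4. Of the 16 kept, 6 had more TBP peaks and 6 fewer, and with equal lists 1 of 15 had more and 7 fewer.

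Antioxidant genes had 6 kept, 6 gained (42.9%, against 30.3% over all genes) and 2 lost (14.3%, against 12%) of 14, but at equal length 3 were gained and 4 lost. Nfe2l2, which encodes NRF2, and Keap1, its inhibitor, each had 4 and 5. Bach1, a repressor at NRF2 sites, had 0 and 2, and Txnrd1 0 and 1. The ferritin chains went apart, with Fth1 at 1 and 0 and Ftl1 at 0 and 1. Respiratory chain and mitochondrial genes had 8 kept, 6 gained (42.9%) and 0 lost of 14, among the gained Phb and Atp5a1 with 0 and 2, but at equal length 2 were gained and 2 lost.

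RNA decay and 3′ end genes went from 40 to 65 peaks (44 at equal length), with 20 kept, 6 gained (20.7%, against 30.3% over all genes) and 3 lost (10.3%, against 12%) of 29, and 3 gained and 6 lost at equal length. Beside Dicer1, Smg1, the kinase of nonsense-mediated decay, had 3 and 7, all 7 retained at equal length. Ago2, the slicing Argonaute, had 2 and 4 (3 at equal length), and Tnrc6b, its partner in silencing, 3 and 6 (3 at equal length). Splicing factors had 30 kept, 6 gained (15%, against 30.3%) and 4 lost (10%, against 12%) of 40, but 5 gained and 9 lost at equal length, with Sf3b1 at 0 and 2, Hnrnpl at 4 and 2 and Prpf8 at 3 and 1. In cholesterol metabolism Sqle, squalene epoxidase, had 1 and 4, all 4 retained at equal length, and Hmgcs1 had 0 and 2.

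By chromosome the gained share lay between 54.5% on chromosome 17 and 66.6% on chromosome 6 among the autosomes. On chromosome X it was 75.6% (66.9 to 83.0), 90 of 119 TBP peaks. Without Tlr7, which holds 15 of them, 80 of 104 were gained. At equal list length the share on chromosome X was 64.9%, against 48.1% over all chromosomes. The X chromosome held 63 control peaks, of which 34 were lost (54.0%, 40.9 to 66.6). Both shares were above those of the lists as a whole, though the interval for losses includes the overall 42.7%. They rested on few genes, 28 kept, 30 gained and 5 lost.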

How the data were processed

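Each deposited list gives a peak's position and strand, an annotation class, the nearest gene and 1 score set by the authors, per the file headers. The score's scale, the peak caller and its threshold, the handling of multi-mapping reads and any role of the input libraries were not given in the sources used here. Tools named in the submitters' processing notes, with no roles, were deepTools 3.5.0, HOMER 4.11, ChIPseeker 1.26, SAMtools 1.9, Picard 2.23.5, FastQC 0.11.9, DESeq2 1.30.1, StringTie 2.1.4, HISAT2 2.1.0 and Trim Galore 0.6.5; the builds were GRCm38 and mm10.

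Peaks were paired with pandas 2.3.3 on Python 3.11.15, and SciPy 1.17.1 gave the intervals. The pairing and counting steps were tested on simulated peaks. For 43.0% of peaks the host gene was read from the exon annotation in the lists. Failing that, the listed nearest gene was used where it held the peak on the same strand (38.3%), and after it a RefSeq gene over the peak (13.9%, and 3.04% with a gene of unlisted strand), while 1.68% had none. It differed from the nearest-gene column for 23.2%. For equal length the TBP list was cut to 4432 peaks by score, with 199 of 507 tied peaks drawn by a fixed seed.

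Members, gene lists and the rule for named genes were chosen with earlier results of these data known, so their counts are not independent support. The rule took the 10 gained and the 10 lost genes with most peaks, the 10 largest additions and removals in kept genes, the 8 best-scored gained and lost peaks in kept genes, and up to 4 members of each gene list. Further list members, such as Tlr2, Atrx, Cct5, Csf1r, Hspa5 and Smg1, and the start-site sequences were picked after their values were seen. Alternatives varied the overlap, the score cut, the list length, the host rule and peak width. Some genes are not reported here.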

Additional observations from a re-analysis of the deposited data

How the results depend on the processing

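The 3′ UTR shares of gained and of lost peaks moved by less than their counting interval under each alternative run for them. Other shares depended on what counts as shared. With an overlap of at least 50% of both peaks 71.96% of TBP peaks were gained and 60.24% of control peaks lost, and 68.36% of gained peaks lay in kept genes. With peaks within 100 bp counted as shared these were 47.96%, 28.97% and 53.25%. At equal list length they were 48.13%, 47.29% and 64.37%, while 25.6% of TBP genes were gained and 25.87% of control genes lost, and 21.83% of kept genes had more and 23.19% fewer peaks. Keeping only the better-scored peaks, those not below their list's median score, 54.41% were gained and 32.23% lost, 48.44% of gained peaks lay in kept genes, 38.51% of TBP genes were gained, and 30.4% of kept genes had more and 11.59% fewer peaks. With peaks of 1 list within 100 bp counted as 1, a choice made after seeing the data, 30.93% had more and 13.37% fewer. By the nearest-gene column Cd44 had 1 more TBP than control peak in place of 1 fewer, and Pus3 1 more in place of 3 fewer. Pus3 also had 1 more among the better-scored peaks. At equal list length Mga changed from 2 more to -2. The causes of these moves were not tested. No paired analysis was possible because each condition has 1 library. The depth of the libraries is unknown, so whether a gained peak reflects deeper sampling was not tested.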
